A study of Mus musculus with 2 samples.

Results

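In the myoblast GRO-seq data, 82 genes had annotated RefSeq entries that were all transcribed and yet differed at least 3-fold in gene activity. They are the gene symbols with 2 or more entries in the activity table, none marked Inactive, all above 0, with a highest entry of at least 0.1 RPKmM that was at least 3 times the lowest. Of 20128 symbols in the table, 2999 have 2 or more entries, 2286 of these have no Inactive entry, 2263 have all entries above 0, and 1940 also reach the floor of 0.1 and are called eligible here. The 82 genes are 4.23% of the eligible genes (exact 95% Clopper-Pearson interval 3.38 to 5.22, for counting error over genes only), and they hold 239 entries. The other 1858 eligible genes serve as the comparison. The genes were chosen by the ratio and level of their activities, so activities and ratios are a description here, with no test.

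C2C12 is an established mouse myoblast line, whose cells divide as myoblasts and can fuse into muscle fibres. GRO-seq (global run-on sequencing) lets engaged polymerases in isolated nuclei extend their RNA in the presence of bromouridine (BrU), and the labelled RNA is captured with an antibody and sequenced, so that reads mark transcribing polymerases rather than accumulated mRNA. The series has 1 group of 2 replicate libraries of C2C12 myoblasts, grown in serum and given no treatment, and the authors pooled them into 1 value per entry. Gene activity is in RPKmM, the reads on the sense strand of the gene body (from 1 kb downstream of the transcription start site, TSS, to the transcript end site, TES) divided by the mappable kilobases and by the pooled read total. No value per library, standard deviation or depth was used here, and no difference between entries could be set against replicate error.

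The myoblast label was checked on marker genes. Myod1 and Myf5, myogenic transcription factors, had activities of 2.39 and 5.03, Cdh15 (M-cadherin) 8.08, Des (desmin) 72.45 and Vim (vimentin) 146.13 RPKmM. Among 16 blood and endothelial marker symbols in the table, 12 had no active entry, none reached 0.1 and the highest stood at 0.02.

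Many mammalian genes have several promoters and several polyadenylation sites, and RefSeq gives each resulting transcript an entry of its own. Transcripts of a gene often share most of their exons, so that mature mRNA is hard to assign to a promoter. Polymerase that starts at an upstream promoter also crosses the gene bodies of downstream entries. Polymerase from an internal promoter lies only downstream of it, but its reads also count in longer entries that span that stretch. Entries that differ only in exons within the same start and end have the same gene body in GRO-seq. The authors kept 1 entry for each start and end, so the entries of a gene here differ in start or end.

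The alternative starts of 4 genes are shown first so that the annotated starts of such genes can be seen. These are the genes, among those with the largest ratios or in the muscle, imprinted and internal promoter lists, for which RefSeq gives at least as many start sites as the table has entries. The reference does not tie a start to an entry. Each sequence below is the 150 bases upstream of a RefSeq start, read on the strand of the gene from NCBIM37 (mm9), where the RefSeq window was placed by exact match. Capitals mark matches, on either strand, to the E-box CANNTG bound by myogenic factors, the TATA box TATAAA, the GC box GGGCGG and the cAMP response element TGACGTCA. Ccl25, a chemokine gene, has starts on the plus strand 24.4 kb apart (chr8:4325060-4325209 and chr8:4349438-4349587). The first window has 21 CpG and none of these motifs, while the second has no CpG, an E-box and a TATA box close to the start.
Ccl25 first start: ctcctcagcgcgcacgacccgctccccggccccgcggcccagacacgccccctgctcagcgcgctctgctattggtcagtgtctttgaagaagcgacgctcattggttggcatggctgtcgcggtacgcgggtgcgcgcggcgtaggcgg
Ccl25 second start: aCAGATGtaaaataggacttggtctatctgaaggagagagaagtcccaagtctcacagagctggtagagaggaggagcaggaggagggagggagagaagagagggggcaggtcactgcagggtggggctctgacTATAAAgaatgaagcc
Sgk1, the serum and glucocorticoid regulated kinase, has 6 starts on the plus strand across 112 kb. Shown are the first (chr10:21601840-21601989), the fourth (chr10:21711879-21712028) and the last (chr10:21714322-21714471). The last window holds 12 CpG, 3 GC boxes and a TATA box, the fourth a TATA box and 1 CpG, and the first 2 E-boxes and 1 CpG.
Sgk1 first start: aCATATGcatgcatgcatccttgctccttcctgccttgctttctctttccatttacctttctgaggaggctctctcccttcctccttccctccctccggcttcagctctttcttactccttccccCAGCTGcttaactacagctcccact
Sgk1 start 4: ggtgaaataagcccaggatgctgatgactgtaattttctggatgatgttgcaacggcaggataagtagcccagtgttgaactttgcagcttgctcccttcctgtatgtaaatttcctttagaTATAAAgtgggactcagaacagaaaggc
Sgk1 last start: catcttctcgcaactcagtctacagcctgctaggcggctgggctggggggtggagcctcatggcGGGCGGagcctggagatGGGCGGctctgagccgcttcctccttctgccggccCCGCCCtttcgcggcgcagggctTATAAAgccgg
Snrpn, an imprinted gene that encodes a small nuclear ribonucleoprotein, has 4 RefSeq starts on the minus strand across 445 kb (135 kb in GENCODE), of which the second (chr7:67285112-67285261) and the last (chr7:67150086-67150235) are shown. Neither of these windows matched any of the motifs, and the windows of the first and the third start, not shown, hold 1 E-box each.
Snrpn second start: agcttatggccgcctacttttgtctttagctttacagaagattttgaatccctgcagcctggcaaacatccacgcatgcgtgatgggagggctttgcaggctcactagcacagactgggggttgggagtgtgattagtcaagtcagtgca
Snrpn last start: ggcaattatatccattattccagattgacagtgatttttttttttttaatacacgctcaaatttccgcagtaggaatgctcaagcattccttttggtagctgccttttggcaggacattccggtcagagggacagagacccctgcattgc
1110020A21Rik, a noncoding gene, has starts only 0.287 kb apart on the minus strand (chr17:85357051-85357200 and chr17:85356764-85356913). The upstream window has 2 GC boxes and the other an E-box, and they hold 5 and 8 CpG.
1110020A21Rik first start: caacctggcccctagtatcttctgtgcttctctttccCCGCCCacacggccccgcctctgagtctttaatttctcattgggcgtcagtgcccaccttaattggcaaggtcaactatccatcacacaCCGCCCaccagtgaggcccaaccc
1110020A21Rik second start: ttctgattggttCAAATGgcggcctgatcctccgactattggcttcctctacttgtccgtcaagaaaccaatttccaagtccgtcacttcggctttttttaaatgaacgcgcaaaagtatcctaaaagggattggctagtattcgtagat

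Over the 153 RefSeq starts found for 70 of the 82 genes, an E-box stood in 44.4% of windows, against 40.7% of 3161 starts of the other eligible genes and 47.7% of all 32851 mouse starts in the RefSeq table. TATAAA was found in 6.54%, against 3.16% and 7.57%, TGACGTCA in 1.31%, against 1.74% and 1.36%, and GGGCGG in 39.9%, against 45.6% and 28.6%. The median GC content was 59.3%, against 61.3% and 54%, and the median number of CpG 6, against 9 and 4. For every measure except TGACGTCA the starts of the 82 genes thus had values between those of the other eligible genes, which are all active, and of all mouse starts. A match is only a match of letters in these windows.

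The highest ratio belonged to 3110039I08Rik, now named Mir100hg, a noncoding host gene of microRNAs with 6 entries. Their activities were 0.01, 0.2, 1.62, 2.92, 3.33 and 26.31 RPKmM, a ratio of 2631 that rounding to 2 decimals leaves between 1754 and 5263. The lowest entry (NR_040725) stood 20-fold below the next, which is the largest step between neighbours, and the highest was NR_015483. The entries thus ran from barely active to among the most active of the set. Its RefSeq starts lie 98.4 kb apart. Mir100, Mirlet7a-2 and Mir125b-1 lie within the gene. The mature sequences that the RefSeq table (GRCm38.p6) holds for them are given with the seed, bases 2 to 8, in capitals, since these small RNAs are known products of the locus. The table is not complete, and let-7a-5p is not shown. The 5 seeds shown differ from each other.
miR-100-5p: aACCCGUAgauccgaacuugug
miR-100-3p: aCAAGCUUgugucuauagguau
let-7a-2-3p: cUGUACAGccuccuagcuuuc
miR-125b-5p: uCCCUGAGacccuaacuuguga
miR-125b-1-3p: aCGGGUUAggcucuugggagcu

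A second microRNA host, 2010111I01Rik (now Aopep, an aminopeptidase gene), had a coding entry at 3.43 and noncoding entries at 10.57 and 14.32 RPKmM. The gene spans 361 kb on the plus strand (chr13:63066253-63427404, mm9, GENCODE vM1). Mir23b, Mir27b and Mir24-1, a cluster, lie within it, and the sequences held for them, without miR-23b-3p, have different seeds.
miR-23b-5p: gGGUUCCUggcaugcugauuu
miR-27b-5p: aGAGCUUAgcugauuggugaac
miR-27b-3p: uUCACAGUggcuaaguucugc
miR-24-1-5p: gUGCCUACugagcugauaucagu
miR-24-3p: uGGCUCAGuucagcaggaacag
In 2010111I01Rik the noncoding entries lay close together and above the coding one. In the GENCODE annotation, small RNA genes lay inside 4 of 73 matched genes (5.48%) and inside 154 of 1808 others (8.52%). The RefSeq table also places Mir7023 within Pik3cd and Mir876 and Mir873a within Lingo2, which that count does not hold.

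For 4 of the genes the table lists 1 identifier more than once, and no other eligible gene was of this kind. Eno1b, an enolase gene, was listed at 0.02 and 2.67 RPKmM, a ratio of 134 (107 to 178 after rounding). Mir5098 was listed at 0.02, 0.65 and 1.54, a ratio of 77. Gene activity is counted from 1 kb downstream of a start, so these values do not measure the microRNA of 21 bases itself. The mature sequence, shown because the entries of Mir5098 gave the third highest ratio, is below with the seed in capitals.
miR-5098: gUUACAUGgugaagcccaguu
Rnaset2b, a ribonuclease T2 gene, stood at 0.18 and 0.73, and 9930111J21Rik2 at 0.03 and 0.13. For these genes the entries share an identifier, and where each of them was placed is not known here. Reads that map equally well to near-identical copies were not kept by the authors, and how many bases of each entry were mappable was not used here, so the values of Eno1b and Rnaset2b are uncertain.

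**Figure D1:**
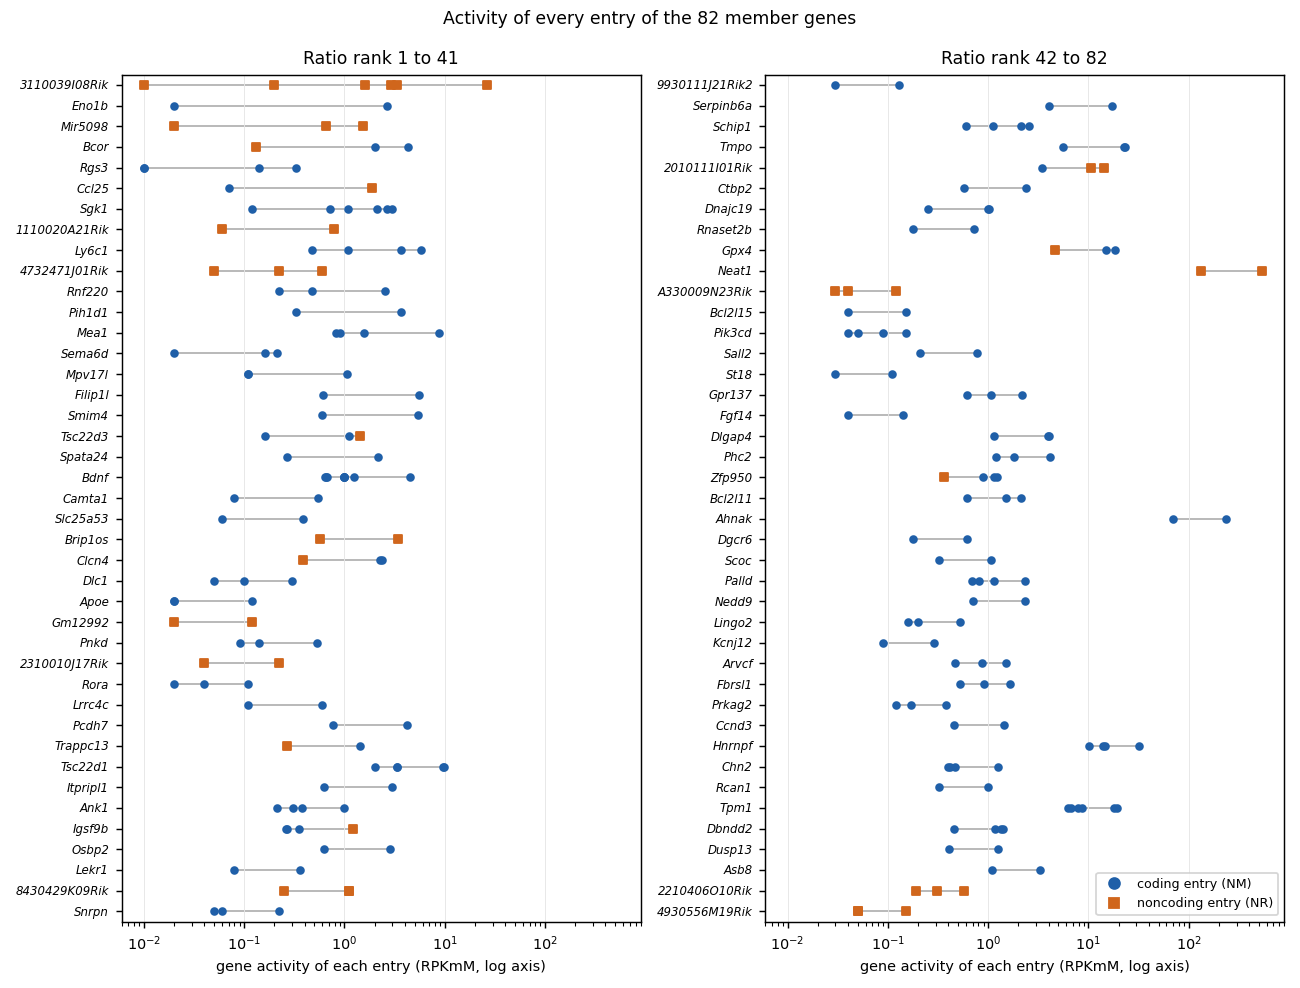
Gene activity (RPKmM, log axis) of every entry of the 82 genes, ordered by ratio from top left to bottom right, with blue circles for coding (NM) and orange squares for noncoding (NR) entries and a grey line from the lowest to the highest entry. The widest line is that of 3110039I08Rik, from 0.01 to 26.31. The rightmost point is the upper entry of Neat1 at 534.56, followed by the upper entry of Ahnak at 237.71 and the lower entry of Neat1 at 132.94.

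Among the 82 genes, the median ratio was 4.37 (quartiles 3.41 and 6.78). It lay from 3 to below 5 in 49 genes, from 5 to below 10 in 19, from 10 to below 30 in 9 and at 30 or more in 5. Genes with a ratio of at least 5 were 33, which is 1.70% of eligible genes, and those of at least 10 were 14, or 0.722%. Eligible genes as a whole had a median ratio of 1.11 and a 90th percentile of 2.04, 1539 of them (79.3%) were below 1.5, and 246 had the same value at every entry. At the threshold, the genes just inside were 4930556M19Rik (0.05 and 0.15, ratio 3), 2210406O10Rik (0.19 and 0.57, ratio 3) and Asb8 (1.09 and 3.28, ratio 3.01). Just outside were Snx12 (1.13 and 3.35, ratio 2.96), Nr4a2 (0.24 and 0.71, ratio 2.96) and Olfm1 (0.72 and 2.11, ratio 2.93). Rounding could bring the ratio of 4 genes below 3, namely the 3 just inside and Dusp13, and 78 would stay at 3 or above. It could also bring genes outside, Nr4a2 among them, to 3 or above, and these were not counted.

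**Figure D2:**
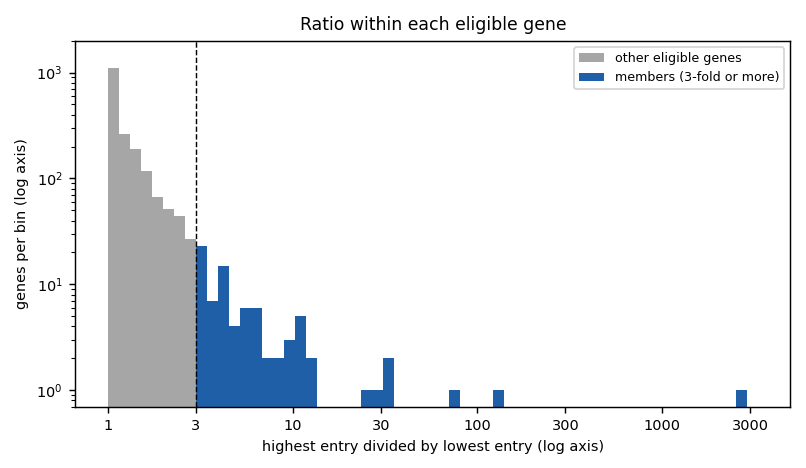
Number of eligible genes (log axis) by the ratio of the highest to the lowest entry (log axis), with the other 1858 genes in grey, the 82 genes in blue and the threshold of 3 as a dashed line. Most eligible genes lie near 1 (median 1.11), and the blue bars thin out to the ratio of 2631.

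The low entry set the 82 genes apart from the other eligible genes more than the high entry did, which the rule makes likely. The highest entry had a median of 1.43 RPKmM (quartiles 0.535 and 3.39), against 1.31 (0.603 and 2.61) in the others. The lowest had a median of 0.255 (0.0625 and 0.618), against 1.07 (0.51 and 2.16), and it was below 0.1 in 26 of the 82 (31.7%) and 28 of the others (1.51%). In 19 genes the lowest entry was at 0.05 or below, where a rounded value has few digits.

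In 46 of the genes there were 3 or more entries, which allows the pattern among them to be described by the largest step between neighbours in activity. In 22 genes 1 entry stood above the largest step, in 18 genes 1 entry stood below it, and in 6 genes (Rgs3, Ly6c1, Tsc22d1, Schip1, Pik3cd and Tpm1) at least 2 entries lay on each side. The largest step had a median of 3.15-fold and was at least 3-fold in 27 of the 46. A step of some size is fixed by the rule on the ratio, and genes of 3 entries, 29 of the 46, can only have 1 entry above or below it, so these counts describe the set and are compared with nothing. The share of members grew with the number of entries, as 36 of 1414 eligible genes with 2 entries (2.55%), 29 of 383 with 3 (7.57%), 12 of 107 with 4 (11.2%) and 5 of 36 with 5 or more (13.9%). A ratio of extremes over more entries is larger by construction, and this order was not tested.

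The genes held 21 with at least 1 noncoding entry. All entries were noncoding (NR) in 12 of 56 such eligible genes (21.4%, interval 11.6 to 34.4), all were coding (NM) in 61 of 1761 (3.46%, 2.66 to 4.43), and both kinds were present in 9 of 123 (7.32%, 3.4 to 13.4). Among those 9, the highest entry was coding in 5 (Bcor, Clcn4, Trappc13, Gpx4 and Zfp950) and noncoding in 4 (Ccl25, Tsc22d3, Igsf9b and 2010111I01Rik). By activity of the highest entry, the share was 6.86% from 0.1 to below 0.3 RPKmM (14 of 204), 2.77% from 0.3 to below 1 (16 of 577), 3.93% from 1 to below 3 (29 of 737), 3.94% from 3 to below 10 (14 of 355) and 13.4% at 10 or more (9 of 67). The rule itself used the highest entry, so these shares by activity only describe the set and were not tested.

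**Figure D3:**
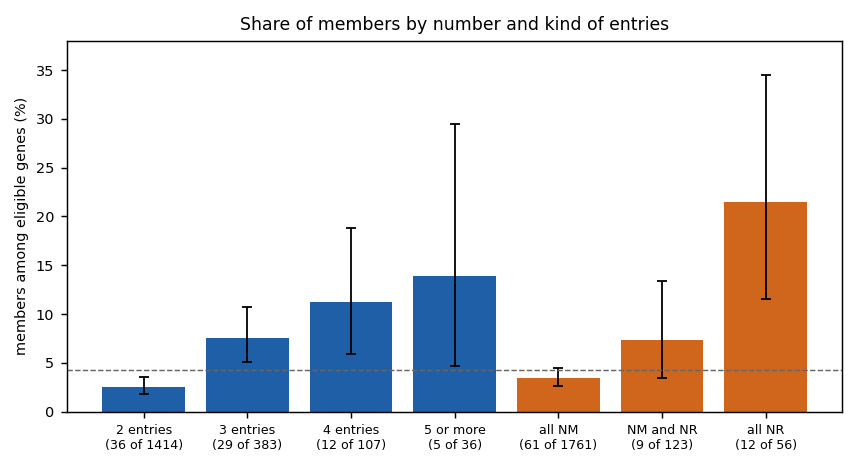
Percentage of eligible genes that are among the 82, by number of entries (blue) and by kind of entry (orange), with exact 95% Clopper-Pearson intervals over genes and the share over all eligible genes, 4.23%, as a dashed line. The bar of genes with 2 entries lies at 2.55% and that of genes whose entries are all noncoding at 21.4%.

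Neat1, the RNA scaffold of nuclear paraspeckles, was the most active gene of the set. It is known for a short and a long transcript that share their 5′ end. Its entries stood at 132.94 (NR_131212) and 534.56 RPKmM (NR_003513), a ratio of 4.02. In GENCODE vM1 the gene spans 20.8 kb on the minus strand (chr19:5824708-5845478), its outermost starts are 0.845 kb apart and its outermost ends 19.6 kb, so its annotated transcripts differ mainly in where they end. The other noncoding genes were far less active. 8430429K09Rik had entries at 0.25, 1.12 and 1.12, Brip1os, which is named as the opposite strand transcript of Brip1, at 0.57 and 3.42, and 1110020A21Rik at 0.06 and 0.78. In 4732471J01Rik the entries were at 0.05, 0.22 and 0.59, in 2310010J17Rik at 0.04 and 0.22, and in 2210406O10Rik at 0.19, 0.31 and 0.57. Gm12992 (0.02 and 0.12), A330009N23Rik (0.03, 0.04 and 0.12) and 4930556M19Rik (0.05, 0.05 and 0.15) lay near the floor.

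Bdnf, a neurotrophin known for a series of alternative first exons that are each spliced to a common coding exon, had the most entries of the 82 genes. Their activities were 0.64, 0.65, 0.67, 0.98, 0.99, 1.0, 1.0, 1.25 and 4.5 RPKmM. Thus 8 entries lay within a narrow range and 1 (NM_001285422) stood 3.6-fold above the next. RefSeq gives 7 starts over 48.2 kb and GENCODE starts over 19.8 kb, and in GENCODE the ends lie within 0.041 kb of each other (chr2:109514857-109567204, plus strand). Ccl25, whose windows are shown above, had a coding entry at 0.07 and a noncoding entry at 1.89, a ratio of 27. Sema6d, a transmembrane semaphorin of axon guidance, was at 0.02, 0.16 and 0.21, with RefSeq starts 564 kb apart, and Fgf14, a fibroblast growth factor homologous factor, at 0.04 and 0.14.

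In a list of signalling proteins, 4 of 35 eligible genes (11.4%) were among the 82, beside 4.23% of all eligible genes, and the median ratio over the 35 was 1.27 against 1.11. Rgs3, a regulator of G protein signalling, had entries at 0.01, 0.01, 0.14 and 0.33. Its ratio of 33 is open to rounding, which allows 21.7 to 67, and the largest step, 14-fold, separated a pair of barely active entries from a pair of weakly active ones. In GENCODE its starts span 141 kb, and its RefSeq starts 59.8 kb (chr4:62220881-62364052, plus strand). Sgk1 had 6 entries at 0.12, 0.71, 1.09, 2.09, 2.66 and 2.97, a ratio of 24.8, and the values were spread out above the lowest (NM_001161845). Dlc1 was at 0.05, 0.1 and 0.3, and Prkag2, a regulatory subunit of AMP-activated kinase, at 0.12, 0.17 and 0.38. These 2 are long genes of 385 kb and 238 kb.

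Other signalling genes outside that list were named after their values were seen. Pik3cd, a catalytic subunit of PI3-kinase, was at 0.04, 0.05, 0.09 and 0.15, and Chn2, a Rac GTPase activating protein, at 0.4, 0.42, 0.47 and 1.24. Rcan1, an inhibitor of calcineurin, was at 0.32 and 0.99 with starts 66.1 kb apart and a common annotated end. Ccnd3, cyclin D3, was at 0.46 and 1.45 with starts 88.4 kb apart, also with a common end. The scaffold gene Nedd9, at 0.71 and 2.34, has starts across 133 kb and a common end in GENCODE, but only 1 RefSeq start was found for it. Dusp13, a dual specificity phosphatase gene, was at 0.41 and 1.24, and Gpr137 at 0.62, 1.08 and 2.17.

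Among chromatin regulators 2 of 26 eligible genes (7.69%) were included, beside 4.23% of all eligible genes, and the list's median ratio was 1.17 against 1.11. Bcor, a corepressor that acts with BCL6, had a noncoding entry at 0.13 (NR_045434) and coding entries at 2.01 and 4.31, a ratio of 33.2. The low entry lay 15.5-fold below the next, and the coding entries differed by a smaller factor. Bcor lies on chromosome X (chrX:11613866-11737481, minus strand), with GENCODE starts across 79.8 kb and 2 RefSeq starts only 0.009 kb apart. Ctbp2, a corepressor gene that also encodes the synaptic ribbon protein RIBEYE from a separate promoter, was at 0.58 and 2.38, with RefSeq starts 66.6 kb apart. Phc2, a Polycomb protein gene outside the list, was at 1.21, 1.81 and 4.16.

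Of transcription factor genes, 1 of 45 eligible list genes (2.22%) was included, beside 4.23% of all eligible genes, and the list's median ratio was 1.09 against 1.11. The gene was Rora, an orphan nuclear receptor, at 0.02, 0.04 and 0.11 over 734 kb (chr9:68501593-69236053, plus strand). Outside the list, Camta1, a calmodulin-binding transcription activator, was at 0.08 and 0.55 over 802 kb. The zinc finger genes Sall2 and St18 were at 0.21 and 0.78 and at 0.03 and 0.11, and Zfp950 was at 0.36, 0.88, 1.15 and 1.23. Tsc22d3, the glucocorticoid-induced leucine zipper, was at 0.16, 1.1 and 1.42, and its relative Tsc22d1 at 2.03, 3.33, 3.34, 9.57 and 9.72. The 5 entries of Tsc22d1 thus fell into a lower group of 3 and an upper group of 2, which were 2.87-fold apart at the step. Fbrsl1 was at 0.52, 0.9 and 1.66.

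Tmpo and Hnrnpf were among the 6 genes of highest top entry. Tmpo, which encodes the lamina-associated polypeptide 2 proteins, had entries at 5.55 (NM_011605), 22.52 and 23.24 RPKmM. The upper entries were nearly equal, and the lowest was 4.06-fold below the nearer of them. The GENCODE starts of Tmpo are 1.55 kb apart and its ends 12.8 kb (chr10:90610316-90634759, minus strand). Hnrnpf, a splicing regulator, was at 10.16, 14.05, 14.49 and 31.66, so that its top entry (NM_001166427) stood 2.18-fold above the next. Splicing and RNA-binding proteins other than Hnrnpf, which was not in that list, gave 0 of 15 eligible genes, beside 4.23% of all eligible genes, with a median ratio of 1.18 against 1.11. Snrpn was the only included gene of 10 eligible imprinted genes (10%, beside the same 4.23%, with a list median ratio of 1.30), at 0.05, 0.06 and 0.22.

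Among muscle and sarcomere genes 1 of 27 eligible genes (3.70%) was included, near the 4.23% over all eligible genes, although the median ratio of the list was 1.38. This gene was Tpm1, tropomyosin, which is known for alternative promoters and 3′ exons that give muscle and nonmuscle forms. Its 6 entries were at 6.19, 6.64, 7.9, 8.57, 18.04 and 19.12 RPKmM. A lower group of 4 and an upper group of 2 were separated by a step of 2.11-fold. Tpm1 spans 26.8 kb (chr9:66870397-66897213, minus strand), with GENCODE starts across 16.6 kb and ends across 11.2 kb, while only 1 RefSeq start was found for its 6 entries.

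The list of cytoskeleton and adhesion genes gave 2 of 36 (5.56%), beside 4.23% of all eligible genes, with a list median ratio of 1.21 against 1.11. Ank1, ankyrin 1, is known for a small muscle form transcribed from an internal promoter, and its entries were at 0.21, 0.31, 0.38 and 1.0. The highest (NM_001310436) stood 2.63-fold above the next. GENCODE starts of Ank1 span 165 kb (chr8:24085316-24260969, plus strand). Palld, palladin, an actin-associated protein, was at 0.69, 0.81, 1.14 and 2.32, with RefSeq starts across 312 kb. In the list of genes known for internal promoters, Ank1 and Bdnf were the 2 included genes of 28 (7.14%, beside the same 4.23%), and the median ratio of 1.5 was the highest of the lists with 5 or more eligible genes. Genes of this list often have more than 2 entries, and more entries raise the ratio by construction. The 4.23% and the 1.11 are therefore not matched to it, and no list was matched for number of entries. Ahnak, a very large scaffold protein gene, was at 69.96 and 237.71, second only to Neat1 in activity. Filip1l, filamin A interacting protein 1-like, was at 0.61 and 5.59 with RefSeq starts 196 kb apart, and Arvcf, a catenin of the p120 family, at 0.47, 0.87 and 1.51. Of extracellular matrix genes, 0 of 5 eligible were included, a number too small to set against 4.23%.

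Several of the genes encode proteins of the cell surface, of channels or of synapses, and were grouped here only for description. Lrrc4c, a synaptic adhesion gene with the longest GENCODE span of the set (1314 kb), was at 0.11 and 0.6. Lingo2 was at 0.16, 0.2 and 0.52, Igsf9b, an adhesion protein of inhibitory synapses, at 0.26, 0.27, 0.35 and 1.21, and Dlgap4, a postsynaptic scaffold, at 1.15, 3.96 and 4.0. Pcdh7, a protocadherin, reached 4.17 in its higher entry against 0.77. Schip1 was at 0.6, 1.12, 2.11 and 2.53, Kcnj12, an inward rectifier potassium channel, at 0.09 and 0.29, Clcn4, a chloride and proton exchanger, at 0.39, 2.26 and 2.34, and Pnkd at 0.09, 0.14 and 0.53. The 30 neuronal markers gave 1 eligible gene, Camk2a, which was not included (0.06 and 0.17, ratio 2.83). Ly6c1, a cell surface antigen, was at 0.47, 1.08, 3.64 and 5.84, a ratio of 12.4 over 4 entries. RefSeq gives it only 2 starts, 0.174 kb apart, and the gene is only 3.81 kb long in GENCODE.

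The remaining genes have diverse roles. Gpx4, a lipid peroxide reducing glutathione peroxidase, was at 4.61 for its noncoding entry and at 14.84 and 18.6 for its coding entries. Serpinb6a, a protease inhibitor, was at 4.03 and 17.29, and Apoe, apolipoprotein E, at 0.02, 0.02 and 0.12. Bcl2l11, which encodes the cell death protein BIM, was at 0.62, 1.49 and 2.11, and Bcl2l15 at 0.04 and 0.15. Mitochondrial genes were Dnajc19, of protein import, at 0.25, 1.0 and 1.02, and Slc25a53, a carrier, at 0.06 and 0.39. Pih1d1, of the R2TP chaperone complex, was at 0.33 and 3.63, Rnf220, a ubiquitin ligase, at 0.22, 0.47 and 2.55, and Asb8 at the values given above. Trappc13, of the TRAPP trafficking complex, was at 0.27 and 1.44, Osbp2, an oxysterol binding protein, at 0.63 and 2.84, and Scoc at 0.32 and 1.08. The genes without a role given here were Mea1 (0.83, 0.91, 1.57 and 8.8), Smim4 (0.59 and 5.37), Itpripl1 (0.63 and 3.0), Spata24 (0.27 and 2.16), Dbndd2 (0.46, 1.17, 1.35 and 1.42), Dgcr6 (0.18 and 0.61), Mpv17l (0.11, 0.11 and 1.05) and Lekr1 (0.08 and 0.36). In Mea1 the top entry stood 5.61-fold above the next, although its 5 RefSeq starts lie within 0.727 kb.

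Gene structure was not used to choose the genes. It was taken by symbol from GENCODE vM1, which matched 73 of the 82 genes (89.0%) and 1808 of the 1858 others (97.3%). The 9 unmatched genes include Eno1b, Mir5098, 3110039I08Rik and Ccl25. The median gene length was 53.4 kb (quartiles 19.3 and 158) against 35.4 kb (15.6 and 83.1). The outermost starts were a median of 26.5 kb apart (0.845 and 135) against 11.02 kb (0.691 and 41.2), and more than 50 kb apart in 31 genes (42.5%) against 391 (21.6%). The outermost ends were a median of 11.5 kb apart (0.384 and 57.4) against 9.97 kb (1.46 and 31.5). Read the other way, 31 of 422 eligible genes with starts over 50 kb apart were included (7.35%, interval 5.05 to 10.3), against 13 of 553 from 10 to 50 kb (2.35%), 8 of 389 from 1 to 10 kb (2.06%) and 21 of 517 within 1 kb (4.06%). For starts the lower quartiles were close together and the upper quartiles far apart, so start distances differed mainly among genes of widely spaced starts. The upper quartiles of ends and length were also higher in the included genes, so wide spacing was not particular to starts. With ends over 50 kb apart, 20 of 330 genes were included (6.06%), against 2.82% to 4.51% at shorter distances. With a length over 300 kb, 11 of 82 eligible genes were included (13.4%), against 2.61% to 4.74% in shorter genes. The number of annotated transcripts had a median of 5 per gene against 6.

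Because genes with more entries are more often included and tend to be longer, the comparison was repeated within genes of exactly 2 entries. Starts were then a median of 16.2 kb apart in 32 genes against 9.41 kb in 1337 others, and more than 50 kb apart in 11 (34.4%) against 251 (18.8%). The median length was 44.3 kb against 31.9 kb. With 3 or more entries, starts were a median of 47.7 kb apart in 41 genes against 18.6 kb in 471 others. In that stratum the lower quartile was smaller, 0.919 kb against 3.26 kb, and starts over 10 kb apart were 61.0% against 58.8%. The median distance between ends was there 11.2 kb against 13.4 kb. RefSeq starts, which could be placed for 70 of the genes and 1593 others, gave a shorter median distance between outermost starts, 1.39 kb against 0.409 kb. More than 1 RefSeq start was given for 67.1% of the genes and 69.3% of the others, and with exactly 2 entries for 54.8% and 63.9%. They were more than 10 kb apart in 31 (44.3%) against 346 (21.7%). Genes are not replicates and many share neighbourhoods and annotation, so no p was computed.

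**Figure D4:**
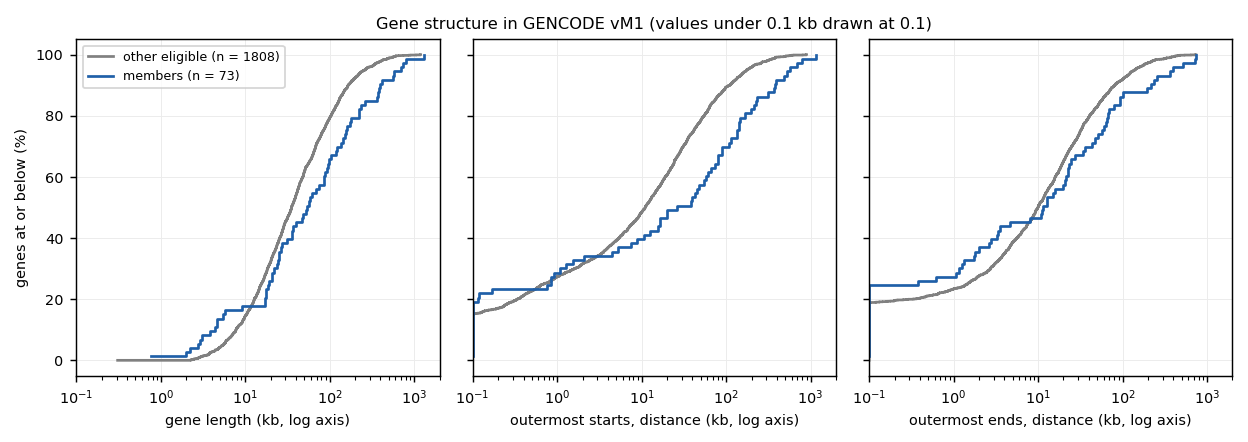
Cumulative percentage of genes (y axis) by gene length, distance between outermost annotated starts and distance between outermost annotated ends (x axes, kb, log), for 73 of the 82 genes in blue and 1808 other eligible genes in grey. The curves are furthest apart for starts, where 42.5% of the blue genes and 21.6% of the grey ones lie beyond 50 kb.

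Sorting the 73 genes by which annotated ends of the gene vary by more than 1 kb gave 40 (54.8%) in which both starts and ends vary, against 63.6% of others. In 12 genes (16.4%, against 9.02%) only starts vary, namely Bdnf, Ccnd3, Fgf14, Gpr137, Hnrnpf, Kcnj12, Nedd9, Rcan1, Sall2, Schip1, Scoc and Snrpn. In 13 (17.8%, against 13.1%) only ends vary, among them Neat1, Apoe, Clcn4, Dnajc19, Igsf9b and Smim4. In 8 (10.96%, against 14.4%) neither varies, among them Mea1, Ly6c1 and Rnaset2b. Each of these 8 has only 1 GENCODE transcript, so both distances are 0 by construction and GENCODE cannot separate their entries. RefSeq, by contrast, places the starts of 4732471J01Rik, which is among the 8, 17.9 kb apart. Overlap with a coding gene on the same strand, whose reads would be counted for both, was found in 1 of the 73 genes (1.37%) and 76 of the others (4.20%).

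**Figure D5:**
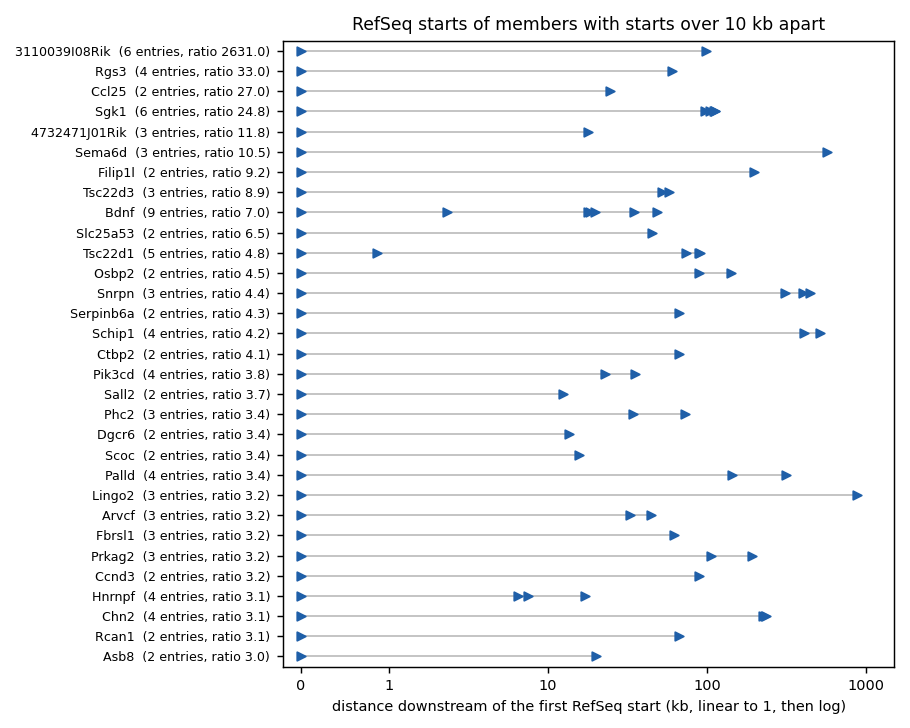
Distance of each RefSeq start (triangles) downstream of the first start of the gene (kb, linear to 1 and then log) for the 31 of the 82 genes whose RefSeq starts lie over 10 kb apart, ordered by ratio. Bdnf shows 7 starts across 48.2 kb, and Sgk1 5 starts in its last stretch and 1 start far upstream.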

How the data were processed

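GRO-seq libraries of untreated C2C12 myoblasts were sequenced, and the authors mapped reads to mm9 (Bowtie2 and CASAVA 1.8 per the submitters' processing notes), kept uniquely mapped reads, discarded rRNA and tRNA repeats and pooled 2 libraries. The deposited values are RPKmM, an RPKM over mappable bases, rounded to 2 decimals, or the word Inactive for entries that did not exceed gene deserts. Because of that word the unit was recorded as other and was not tested automatically. The reads per library are unknown here, and 0 other columns of values were left unused.

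Ratios, counts, medians and exact Clopper-Pearson intervals over genes were computed with Python 3.11.15, pandas 2.3.3, numpy 2.4.6 and scipy 1.17.1 and plotted with matplotlib 3.10.9, after checks on simulated data. Structure came from GENCODE vM1 (NCBIM37), and RefSeq starts and microRNAs from tables of GRCm38.p6. Genes and lists were chosen with earlier results of these data known. Genes were named by a rule (10 largest ratios, 6 highest entries, 3 with most entries, 3 on each side of the threshold, and list members); all other members were named after their values were seen. Alternatives were other thresholds, floors, entry types and annotations. Pooling hides the variation between libraries, and the references used here do not tie an entry to its own start and end.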

Additional observations from a re-analysis of the deposited data

How the results depend on the processing

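Of 30 alternative values, 19 lay within 1.5 times the reported value (for shares, within its 95% interval) and 11 did not. The number of genes was 204 at a ratio of 2, 52 at 4, 33 at 5 and 14 at 10, and 52 with a floor of 1 RPKmM. It lay from 62 to 88 with a floor of 0.05 or 0.5, coding entries only, unique identifiers, the smallest ratio rounding allows, or entries at 0 or Inactive left out, which added 1 gene and lost none. With exactly 2 entries the share was 2.55%. The median distance between outermost starts was 16.2 kb with exactly 2 entries, 44.5 kb with protein coding transcripts only (against 3.06 kb in other eligible genes) and 1.39 kb with RefSeq starts (against 0.409 kb). The last source was chosen after seeing the data, as was the restriction to unique identifiers for distance (37.9 kb) and length (57.2 kb). In each of these settings the 82 genes, or those left of them, had the larger median. The cause of these shifts was not tested.

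No paired analysis was possible because the libraries were pooled into 1 value per entry, and no replicate was left out for the same reason. The share of genes whose shortest entry is the highest, and its alternative, were not run because no reference used here gives the start and end of an entry. Values at 0.05 or below carry few digits, and the number of reads behind an entry is unknown.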

Other observations

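Below the floor, 323 gene symbols had several entries that were all active and above 0 with a highest entry under 0.1 RPKmM, and 17 of them (5.26%) had a ratio of at least 3, at values where rounding limits the ratio. A further 23 symbols had an entry listed at 0, and 0 of these had a highest entry of at least 0.1.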
